A study of Mus musculus with 16 samples.

Results

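The enzymes described here make and remove all-trans retinoic acid, the hormone-like acid form of vitamin A. They are Rdh10, Dhrs3, Aldh1a1, Aldh1a2, Aldh1a3 and Cyp26b1, 6 of the 57180 genes counted in each library, and they were taken by symbol for their place in the pathway, with earlier results of these data known. RNA was sequenced from lungs of male mouse fetuses at embryonic day E14.5. The 16 libraries formed 4 groups of 4. In the B6 control and A/J control groups the pregnant dams of strains C57BL/6J (B6) and A/J were given corn oil, and in the B6 BMS493 and A/J BMS493 groups they were given BMS493, an inverse agonist that holds all retinoic acid receptors in a repressing state, orally at a daily dose of 3.75 µg per g from E9.5 to E14.5. The labels name no transgene or mutant allele in any group, and the dam rather than the fetus was dosed. Which fetuses came from the same dam, and whether a library held 1 lung or several, is not stated in the labels, so p-values measure the spread between these libraries.

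Retinol is oxidised to retinaldehyde by dehydrogenases such as RDH10, and DHRS3 runs the reaction backwards. Retinaldehyde dehydrogenases (the ALDH1A enzymes) then oxidise retinaldehyde irreversibly to retinoic acid, and CYP26 hydroxylases start its breakdown. Retinoic acid acts through RAR receptors on DNA, and several genes that hold its level down, among them Cyp26 genes and Dhrs3, are known as targets of the receptors, as is Rarb, which encodes a receptor itself. In the embryonic lung Aldh1a2 is known as the main synthesis gene and is strong in the mesothelium that covers the organ.

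Of the 6 genes, Cyp26b1 and Dhrs3, the 2 that lower retinoic acid, fell with BMS493 in both strains, and the 4 synthesis genes did not pass the test in either strain. Cyp26b1 was 12.4-fold lower in B6 and 19.0-fold lower in A/J by the ratio of group means, and Dhrs3 was 2.46-fold and 4.19-fold lower. Between strains, Rdh10 was higher in A/J than in B6 under both treatments, and with BMS493 Aldh1a2 was also higher and Dhrs3 lower in A/J. The tests were run over all 17276 genes that passed a filter on low counts, and all 6 enzymes passed it. Calls required an adjusted p under 0.05, and fold changes are on the log2 scale.

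Counts assigned to genes ranged from 15207539 to 24146224 per library. The lung transcription factor gene Nkx2-1 lay at 161 to 312 counts scaled to 1000000 assigned counts (CPM), Foxf1 at 119 to 215 and Tbx4 at 200 to 279, while 4 heart markers summed to 4.37 to 33.6 CPM. Of these 4, Nppa had no count in any library and Myh6 lay at 0.113 to 19.2 CPM. The B6 BMS493 libraries differed most among themselves. The median absolute difference in log2 CPM from the other libraries of the group was 0.27 for B6 BMS493 replicate 3 and 0.13 to 0.20 for each of the other 15, so values without that library are given where it matters.

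**Figure D1:**
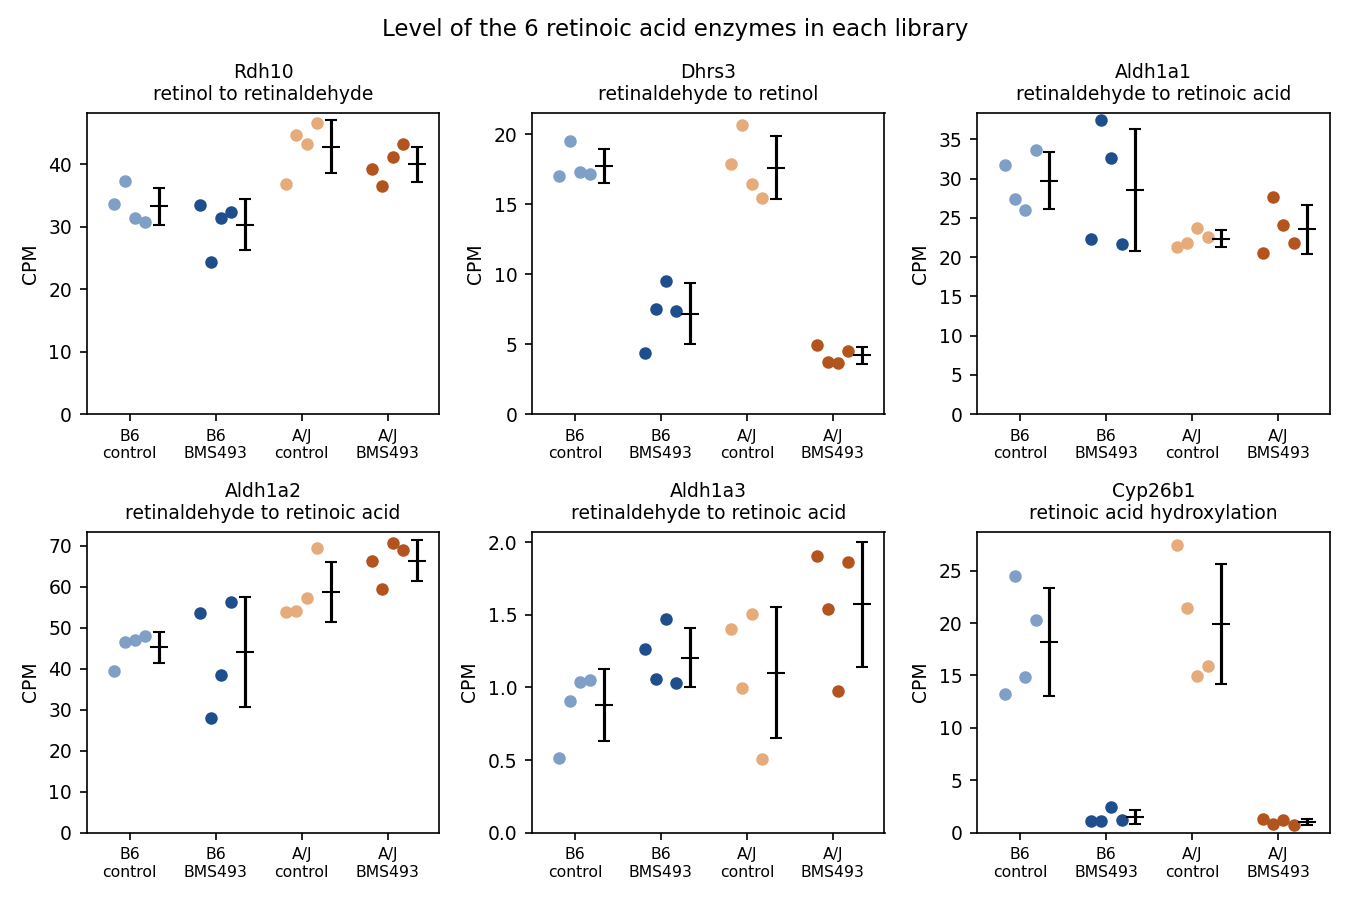
CPM of each enzyme gene (y axis, linear, starting at 0) in the 4 libraries of each group (points, replicates 1 to 4 from left to right), with the mean and SD of the group as a black bar. Cyp26b1 and Dhrs3 lay lower in every BMS493 library than in any control library of the same strain, and Rdh10 and Aldh1a2 tended to lie higher in A/J.

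Levels can be compared between genes only per length of transcript, in CPM per kilobase of exon (CPM per kb). On that scale Aldh1a2 was the most abundant of the 6 genes in all 4 groups, with group means of 20.0 CPM per kb in B6 control and 25.9 in A/J control lungs. Rdh10 followed with means of 8.003 in B6 control and 10.3 in A/J control lungs. Dhrs3 and Aldh1a1 lay close together in B6 control lungs, at 6.05 ± 0.406 and 6.02 ± 0.734 (SD, n = 4 each), and did not differ beyond their spread there. In A/J control lungs Dhrs3 was at 6.01, Aldh1a1 at 4.53 and Cyp26b1 at 3.73. Aldh1a3 was lowest in the control groups, at 0.190 and 0.239 CPM per kb. With BMS493, Cyp26b1 moved from the fifth place to near Aldh1a3, at 0.275 CPM per kb in B6 and 0.196 in A/J, where Aldh1a3 was at 0.261 and 0.340. In A/J BMS493 lungs Aldh1a2 reached 29.3 CPM per kb and Dhrs3 only 1.44.

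The first step of synthesis was measured through Rdh10 (ENSMUSG00000025921.8, chromosome 1), which encodes the dehydrogenase that limits the supply of retinaldehyde in the embryo. Its CPM in replicates 1 to 4 was 33.7, 37.3, 31.4 and 30.8 in B6 control and 33.5, 24.4, 31.4 and 32.3 in B6 BMS493 lungs. It was 36.8, 44.7, 43.2 and 46.6 in A/J control and 39.2, 36.5, 41.1 and 43.2 in A/J BMS493 lungs. The treated and control libraries overlapped in both strains, while the A/J libraries lay above nearly all B6 libraries. BMS493 against control gave a log2 fold change of -0.14 in B6 (95% interval -0.34 to 0.06, adjusted p = 0.708) and -0.10 in A/J (95% interval -0.29 to 0.10, adjusted p = 0.998), so a fall of more than 0.34 on the log2 scale lay outside both intervals.

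Rdh10 was the only one of the 6 genes that was called between the strains in control lungs. The log2 fold change of A/J over B6 was 0.36 (SE 0.10) with an adjusted p of 0.00904, where 7.04% of all genes tested were called higher in A/J. With BMS493 the strain difference was 0.40 (SE 0.10, adjusted p = 0.00378), and the A/J and B6 values did not overlap. Within libraries numbered 1 to 8, which hold replicates 1 and 2 of each group, the control difference was 0.20 as a log2 ratio of means, and within libraries 9 to 16 it was 0.53. With BMS493 these values were 0.39 and 0.40.

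The reverse step was measured through Dhrs3 (ENSMUSG00000066026.15, chromosome 4), which encodes the reductase that returns retinaldehyde to retinol. Its CPM was 17.0, 19.5, 17.3 and 17.1 in B6 control and 4.34, 7.53, 9.54 and 7.35 in B6 BMS493 lungs. In A/J it was 17.9, 20.6, 16.4 and 15.4 in control and 4.96, 3.70, 3.67 and 4.48 in BMS493 lungs. The control groups of both strains overlapped, and no BMS493 library reached any control library. In bulk lung RNA, fewer cells of a type and less RNA per cell cannot be told apart. Dhrs3 fell by 1.31 on the log2 scale in B6 (SE 0.16, 95% interval -1.64 to -0.99, adjusted p = 8.94e-05) and by 2.07 in A/J (SE 0.17, 95% interval -2.41 to -1.73, adjusted p = 2.39e-08).

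With Cyp26b1, Dhrs3 made up the 2 members called lower in B6, where 0.347% of all genes tested were called lower, and the 2 called lower in A/J, where 0.423% were. None of the 6 was called higher by BMS493 with edgeR or DESeq2. With edgeR, 0.0752% of all genes were called higher in B6 and 0.0637% in A/J. None of the 6 was higher at an unadjusted p under 0.05 either. In either direction, 9.11% of all genes passed that threshold in B6 and 6.23% in A/J. The CPM of Cyp26b1 and Dhrs3 did not overlap between treatments, which held for 2.63% of genes on the lower side in B6 and 2.84% in A/J. With the effects averaged over the strains the same 2 genes were called lower, against 1.09% of all genes. Without B6 BMS493 replicate 3, the B6 library with the highest Dhrs3 level after treatment, the B6 change was -1.47 (adjusted p = 6.34e-06).

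In control lungs Dhrs3 did not differ between strains beyond its spread (log2 fold change -0.01, 95% interval -0.31 to 0.30, adjusted p = 0.978). In BMS493 lungs A/J lay below B6, with a log2 fold change of -0.76 (SE 0.17) and an adjusted p of 0.00242. As a log2 ratio of means this difference was -0.45 within libraries 1 to 8 and -1.05 within libraries 9 to 16. Dhrs3 was 1 of 3 enzyme genes called in that contrast, with Rdh10 and Aldh1a2 called higher, against 20.0% of all genes tested called in either direction. B6 BMS493 replicate 1, at 4.34 CPM, lay within the A/J range, and the other 3 B6 libraries lay above it. Without B6 BMS493 replicate 3 the strain difference was -0.62 (adjusted p = 0.00974). The effect of BMS493 itself was stronger in A/J by 0.76 on the log2 scale (95% interval -1.23 to -0.28). That difference between strains did not pass the adjustment over all genes (adjusted p = 0.999), and 0.00579% of genes did. The B6 effect, the A/J effect and both strain contrasts share libraries, so these values are not independent of each other.

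The retinaldehyde dehydrogenases form the synthesis step proper. Aldh1a2 (ENSMUSG00000013584.6, chromosome 9) was at 39.6, 46.5, 47.1 and 47.9 CPM in B6 control and 53.6, 27.9, 38.6 and 56.3 in B6 BMS493 lungs. In A/J it was at 54.0, 54.2, 57.3 and 69.5 in control and 66.4, 59.4, 70.7 and 69.1 in BMS493 lungs. The B6 BMS493 libraries spanned a range that enclosed all B6 controls, and every A/J library lay above every B6 library of the same treatment, which in control lungs held for 10.7% of all genes. BMS493 against control gave -0.04 in B6 (95% interval -0.40 to 0.32, adjusted p = 0.962) and 0.18 in A/J (95% interval -0.17 to 0.53, adjusted p = 0.993).

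With BMS493 the A/J level of Aldh1a2 exceeded that of B6 by 0.59 on the log2 scale (SE 0.17), and the adjusted p was 0.0211. Like Rdh10 it did not overlap between the strains there, as was the case for 8.74% of all genes on the higher side. The call was lost without B6 BMS493 replicate 3 (0.53, adjusted p = 0.0725), without A/J BMS493 replicate 3 (0.56, adjusted p = 0.0548) and with only the 8 libraries compared (adjusted p = 0.0655). In control lungs the difference was 0.37 (95% interval 0.02 to 0.73, adjusted p = 0.152). That value was called when only the 8 control libraries were fitted (0.38, adjusted p = 0.00172).

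Mesothelial markers other than Aldh1a2 were set beside it. Of 9 listed, 2 were called higher in A/J control lungs and 1 lower, with Wt1, a mesothelial transcription factor gene, at 0.74 (adjusted p = 0.00179). Of all genes tested, 7.04% were called higher there and 9.84% lower. In BMS493 lungs 3 markers were called higher and 3 lower, against 7.93% and 12% of all genes. The summed level of the 9 ranged from 165 to 180 CPM in B6 control, 156 to 179 in B6 BMS493, 169 to 177 in A/J control and 141 to 160 in A/J BMS493 lungs, and none of the defining markers Wt1, Upk3b, Msln and Lrrn4 was at 0 in any library. The part of the mesothelium in the Aldh1a2 values was not tested.

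Aldh1a1 (ENSMUSG00000053279.9, chromosome 19), a second retinaldehyde dehydrogenase gene, was at 31.8, 27.4, 26.0 and 33.7 CPM in B6 control and 22.3, 37.5, 32.6 and 21.7 in B6 BMS493 lungs. In A/J it was at 21.3, 21.8, 23.8 and 22.6 in control and 20.6, 27.7, 24.05 and 21.8 in BMS493 lungs. The A/J libraries tended to be lower and, in the control groups, lay below all B6 libraries, as was the case for 13.6% of all genes. Of 9 epithelial markers, Epcam (-0.24) and Sftpc (-1.79) were called lower in A/J control lungs, and Epcam (-0.35), Sftpc (-2.47) and Cdh1 (-0.48) in A/J BMS493 lungs, against 9.84% and 12% of all genes. Their summed level was 1209 to 1406 CPM in A/J control and 1448 to 1688 in B6 control lungs, without overlap, and their part in the Aldh1a1 values was not tested. BMS493 against control gave -0.05 in B6 (95% interval -0.35 to 0.25, adjusted p = 0.939) and 0.07 in A/J (95% interval -0.23 to 0.38, adjusted p = 1).

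The strain difference of Aldh1a1 in control lungs was -0.41 (95% interval -0.71 to -0.11) and narrowly missed the threshold, with an adjusted p of 0.0588. It was called with DESeq2 (adjusted p = 0.0356), with no filter (adjusted p = 0.000530), with only the 8 control libraries (adjusted p = 0.00147), with the fourth count column (adjusted p = 0.0258) and without B6 control replicate 3 (adjusted p = 0.0490). In BMS493 lungs the difference was -0.28 (95% interval -0.58 to 0.02, adjusted p = 0.194), and it was called without B6 BMS493 replicate 4 (-0.39, adjusted p = 0.0481).

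Within the B6 BMS493 group the dehydrogenases Aldh1a1 and Aldh1a2 lay in opposite order. Replicates 2 and 3 held the highest Aldh1a1 levels and the lowest Aldh1a2 levels of the group, and replicates 1 and 4 the reverse. Sftpc, the surfactant protein C gene of the distal epithelium, was at 179, 867, 590 and 288 CPM in replicates 1 to 4 of this group, and Wt1 at 11.6, 5.45, 6.14 and 9.02. The summed level of the 9 mesothelial markers did not follow Wt1, at 161.9, 156.4, 179.1 and 156.9 CPM. The summed level of 9 epithelial markers was 1523, 2528, 1928 and 1638 CPM in the same order, against 1448 to 1688 in B6 control lungs. In A/J BMS493 lungs it was 1226 to 1434. The part of epithelial or mesothelial cells in these 2 genes was not tested.

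**Figure D2:**
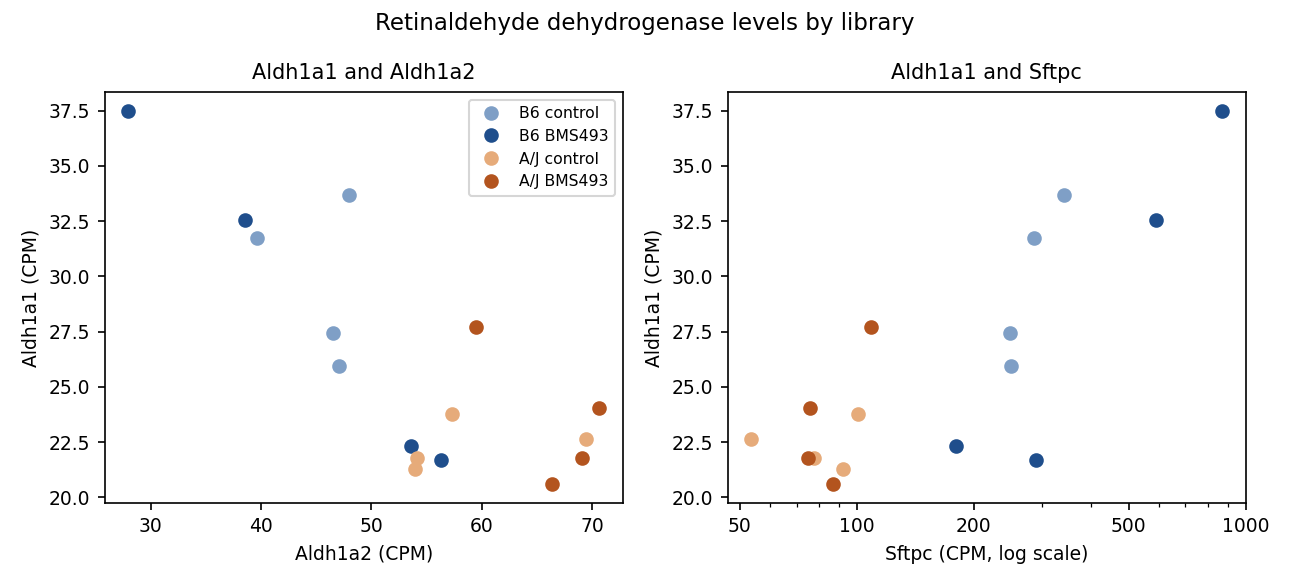
Aldh1a1 level in CPM (y axes) against Aldh1a2 in CPM (left, linear axes) and against Sftpc in CPM (right, log x axis), with 1 point for each of the 16 libraries, coloured by group. B6 BMS493 replicates 2 and 3 lie at the upper end of Aldh1a1 and Sftpc and at the lower end of Aldh1a2.

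Aldh1a1 has a close relative on the same chromosome, Aldh1a7, and reads could be split between them. Of the 4934 windows of 50 bases in the Aldh1a1 transcripts, 3.06% also occurred in another gene, each of them in Aldh1a7, and 7.49% of the Aldh1a7 windows were shared. Aldh1a7 was at 170.5 ± 6.09 CPM in B6 control, 171.8 ± 32.5 in B6 BMS493, 110.9 ± 5.21 in A/J control and 107.8 ± 8.69 in A/J BMS493 lungs (SD, n = 4 each). Its A/J level was called lower, at -0.62 on the log2 scale in control (adjusted p = 3.10e-05) and -0.67 in BMS493 lungs (adjusted p = 9.99e-06), and it was not called with BMS493 in either strain. Its highest library was B6 BMS493 replicate 2, at 214.9 CPM, the library that was also highest in Aldh1a1. Shared reads of this pair remain uncertain.

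The promoters of this pair are shown because they are nearly the same next to the start. Both sequences are the 250 bases before the transcription start, 5′ to 3′ on the gene's strand, from RefSeq for GRCm38.p6, at chr19:20601718-20601967 (plus strand) for the second of 2 Aldh1a1 starts and at chr19:20727557-20727806 (minus strand) for Aldh1a7. Capitals mark the retinoic acid receptor hexamer GGGTCA read on the opposite strand, at position -49 in both.
Aldh1a1: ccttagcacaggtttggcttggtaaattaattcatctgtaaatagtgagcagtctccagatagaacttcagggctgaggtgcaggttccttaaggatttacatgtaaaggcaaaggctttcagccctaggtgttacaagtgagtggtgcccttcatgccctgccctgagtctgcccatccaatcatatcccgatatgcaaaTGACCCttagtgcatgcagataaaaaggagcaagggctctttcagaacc
Aldh1a7: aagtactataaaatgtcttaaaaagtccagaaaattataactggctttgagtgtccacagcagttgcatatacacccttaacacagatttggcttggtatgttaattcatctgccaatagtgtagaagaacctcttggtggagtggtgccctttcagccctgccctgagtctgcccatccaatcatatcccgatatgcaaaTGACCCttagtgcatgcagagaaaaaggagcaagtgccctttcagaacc
Aligned from the start without gaps, 94 of the last 100 bases were identical, but only 129 of all 250.

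Aldh1a3 (ENSMUSG00000015134.16, chromosome 7), the third of these dehydrogenase genes, was rare, with 9 to 41 counts per library. Of its transcript windows of 50 bases, 1.15% also occurred in another gene, most often Casc4. Its CPM was 0.516, 0.909, 1.04 and 1.05 in B6 control and 1.26, 1.06, 1.47 and 1.03 in B6 BMS493 lungs. In A/J it was 1.40, 0.996, 1.503 and 0.511 in control and 1.90, 1.54, 0.977 and 1.86 in BMS493 lungs. The groups overlapped in both strains. BMS493 against control gave 0.45 in B6 (95% interval -0.26 to 1.16, adjusted p = 0.734) and 0.49 in A/J (95% interval -0.17 to 1.16, adjusted p = 0.948), and averaged over the strains 0.47 (95% interval -0.01 to 0.96, adjusted p = 0.480). The intervals are wide and hold both no change and a rise, and the strain differences of 0.34 in control and 0.39 in BMS493 lungs were not called.

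Among the 3 dehydrogenase genes, Aldh1a2 made up most of the transcripts per kilobase. Its share of their sum was 72.8% to 79.1% in B6 control, 61.2% to 84.3% in B6 BMS493, 83.1% to 86.7% in A/J control and 81.5% to 86.5% in A/J BMS493 lungs. The control ranges of the strains did not overlap. Aldh1a3 never held more than 1.33% of the sum. When Aldh1a7, whose enzyme is not known as an effective retinaldehyde dehydrogenase, was added after the data had been seen, it held 57.6% to 83.8% of the sum of 4.

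Clearance was measured through Cyp26b1 (ENSMUSG00000063415.13, chromosome 6), which encodes a hydroxylase that inactivates retinoic acid. Its CPM was 13.3, 24.5, 14.9 and 20.3 in B6 control and 1.11, 1.10, 2.47 and 1.21 in B6 BMS493 lungs. In A/J it was 27.4, 21.4, 14.98 and 15.9 in control and 1.35, 0.880, 1.21 and 0.756 in BMS493 lungs. The highest treated library of either strain lay below the lowest control library by a wide margin, and the treated libraries still held 15 or more counts each. The log2 fold change was -3.68 in B6 (SE 0.28, 95% interval -4.28 to -3.08, adjusted p = 2.51e-06) and -4.24 in A/J (SE 0.29, 95% interval -4.85 to -3.63, adjusted p = 8.22e-08).

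B6 BMS493 replicate 3 was the highest treated library for Cyp26b1 as for Dhrs3 and Rarb. Without it the B6 change of Cyp26b1 was -4.002 (adjusted p = 4.44e-06). As log2 ratios of means, the change was -4.09 in libraries 1 to 8 and -3.26 in libraries 9 to 16 in B6, and -4.46 and -3.98 in A/J. For Dhrs3 the corresponding values were -1.62 and -1.02 in B6, and -2.15 and -1.97 in A/J. Both genes were thus lower with BMS493 within each library set.

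The effect of BMS493 on Cyp26b1 did not differ between strains past the threshold (-0.56, 95% interval -1.48 to 0.36, adjusted p = 0.999). Neither did its level, with a log2 fold change of A/J against B6 of 0.13 in control (95% interval -0.32 to 0.58, adjusted p = 0.750) and -0.43 in BMS493 lungs (95% interval -1.23 to 0.36, adjusted p = 0.479). Control libraries varied widely for this gene, and its SD of log2 CPM within groups, 0.43, exceeded that of 81.3% of all genes tested. For Dhrs3 the SD was 0.28 and for Rdh10 0.15, against a median of 0.17 over all genes.

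Endothelial markers, which mark a further cell type of the lung, were set beside the fall of Cyp26b1 and Dhrs3. None of the 6 listed was called with BMS493 in either strain by edgeR or DESeq2 (unadjusted p under 0.05 for 0 in B6 and 1 in A/J, against 9.11% and 6.23% of all genes tested). Their summed level was 1001 to 1110 CPM in B6 control, 943 to 1181 in B6 BMS493, 740 to 886 in A/J control and 721 to 861 in A/J BMS493 lungs. Of 8 mesenchymal and smooth muscle markers, Foxf1 was called lower in B6 (-0.40, adjusted p = 0.0233) and none in A/J. In each strain 3 of the 8, all lower, had an unadjusted p under 0.05, against 9.11% and 6.23% of all genes tested. DESeq2 called 3 of the 8 in B6 and 0 in A/J. With the effects averaged over the strains 3 of the 8 were called lower, namely Foxf1 (-0.33), the smooth muscle actin gene Acta2 (-0.27) and the calponin gene Cnn1 (-0.29), against 1.09% of all genes. Their sum was 1664 to 1711 in B6 control, 1460 to 1583 in B6 BMS493, 1369 to 1657 in A/J control and 1376 to 1467 in A/J BMS493 lungs. The endothelial sums overlapped between treatments. With the effects averaged over the strains, the mesothelial marker Upk3b (-0.38, adjusted p = 0.00789) and the neuronal marker Tubb3 (-1.03, adjusted p = 0.0292) were also called lower. The mesothelial sum given above was lower with BMS493 in A/J without overlap and overlapped in B6, and the sum of 6 neural markers, between 17.2 and 28.0 CPM in all libraries, overlapped in both strains. The part of these cells in the fall of Cyp26b1 and Dhrs3 was not tested. Between strains, 4 of the 6 endothelial markers were called lower in A/J control lungs and all 6 in A/J BMS493 lungs, against 9.84% and 12% of all genes tested, and their part in the strain differences of the enzyme genes was not tested. The mesenchymal sums did not overlap in B6, where treated libraries were lower, and their part in the fall of Cyp26b1 and Dhrs3 was not tested.

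**Figure D3:**
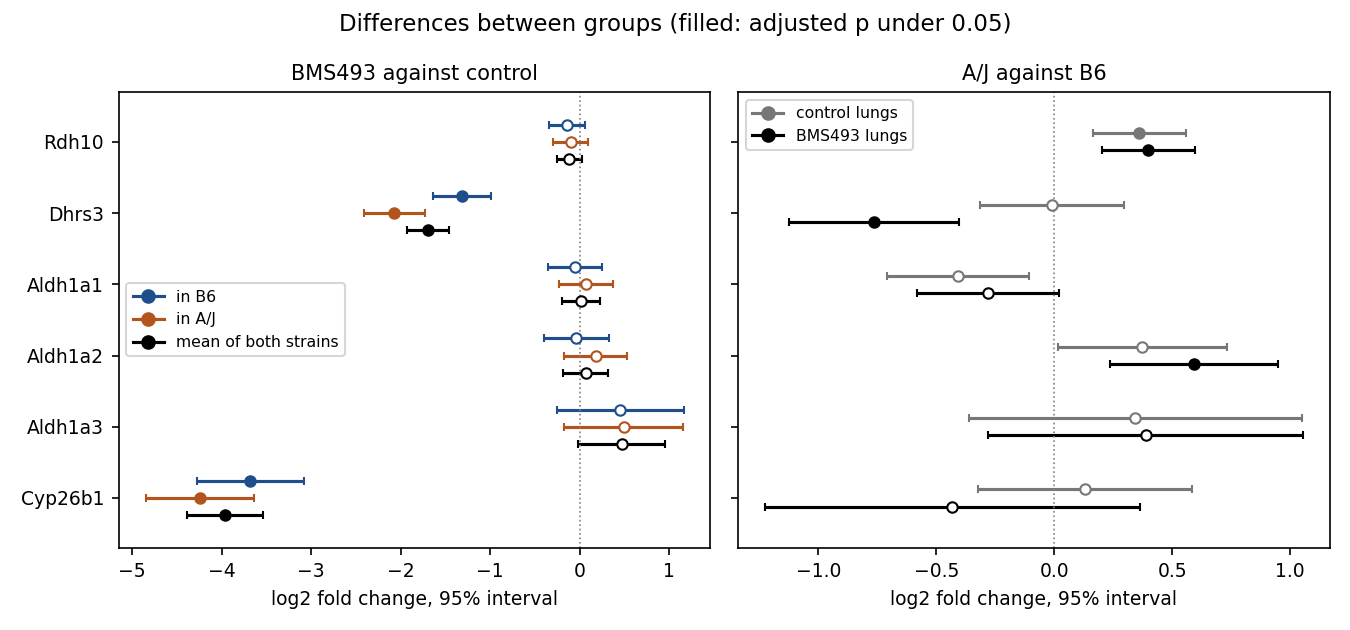
Log2 fold changes (x axes) with 95% intervals for the 6 enzyme genes (y axis), BMS493 against control on the left and A/J against B6 on the right, with filled points for an adjusted p under 0.05. Only Dhrs3 and Cyp26b1 have filled points on the left, between -1.31 and -4.24, and on the right Rdh10 in both treatments and Dhrs3 and Aldh1a2 with BMS493.

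The promoters of the 2 genes that fell are shown with that of Rarb, the receptor gene whose promoter holds the classic response element of the retinoic acid receptors, a direct repeat of the hexamer with a spacing of 5 bases. Each is the 250 bases before the RefSeq start in GRCm38.p6, 5′ to 3′ on the gene's strand, at chr6:84593811-84594060 (minus) for Cyp26b1, chr4:144892577-144892826 (plus) for the first of 3 Dhrs3 starts, and chr14:16575477-16575726 (minus) for Rarb. Capitals mark the direct repeat in Rarb.
Cyp26b1: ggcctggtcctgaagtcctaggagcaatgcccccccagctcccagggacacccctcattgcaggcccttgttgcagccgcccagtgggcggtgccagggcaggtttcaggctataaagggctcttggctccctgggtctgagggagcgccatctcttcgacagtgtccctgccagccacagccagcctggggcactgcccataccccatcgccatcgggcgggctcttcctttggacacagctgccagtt
Dhrs3: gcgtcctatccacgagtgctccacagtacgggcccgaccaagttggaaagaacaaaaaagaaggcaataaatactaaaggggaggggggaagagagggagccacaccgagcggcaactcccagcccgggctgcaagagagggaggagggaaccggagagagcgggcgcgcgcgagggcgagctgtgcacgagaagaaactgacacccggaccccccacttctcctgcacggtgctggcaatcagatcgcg
Rarb: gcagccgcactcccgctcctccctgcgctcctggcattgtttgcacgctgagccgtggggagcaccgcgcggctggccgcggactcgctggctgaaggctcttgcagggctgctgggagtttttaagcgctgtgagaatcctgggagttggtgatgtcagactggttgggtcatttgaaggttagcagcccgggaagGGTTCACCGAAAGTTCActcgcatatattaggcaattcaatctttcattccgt
The Rarb repeat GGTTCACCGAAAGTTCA begins at position -53. Windows of 300 bases, from 250 before to 50 after a start, were searched on both strands for the consensus receptor hexamer AGGTCA, for its variant with the letters AGTTCA and for another with the letters GGGTCA. A further variant that reads GGTTCA was added after the Rarb window had been seen. A direct repeat holds a pair of these hexamers and was also counted under them. A direct repeat spaced by 5 bases occurred in 0.0974% of all 32851 windows with the 4 hexamers and in 0.0731% with the 3. For spacings of 1 and 2 bases the shares with 4 hexamers were 0.222% and 0.268%. The 7 windows of Cyp26b1, Dhrs3, Aldh1a1 and Aldh1a2 held no direct repeat spaced by 1, 2 or 5 bases, and 1 of them held a hexamer, against 43.7% of all windows. No more can be read from this than that the letters are not in these windows. Rdh10 and Aldh1a3 were not matched.

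The balance of opposed enzymes was followed within each library, where scaling plays no part. Rdh10 gave 1.80 to 1.98 counts for each count of Dhrs3 in B6 control and 2.06 to 3.02 in A/J control lungs. With BMS493 this became 3.24 to 7.71 in B6 and 7.90 to 11.2 in A/J. Every BMS493 library lay above every control library, and all 4 A/J BMS493 libraries lay above the 4 of B6. Aldh1a2 gave 1.90 to 3.16 counts for each count of Cyp26b1 in B6 control and 1.97 to 4.36 in A/J control lungs, and 15.6 to 48.3 and 49.3 to 91.5 with BMS493. These ratios describe the libraries and carry no test.

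**Figure D4:**
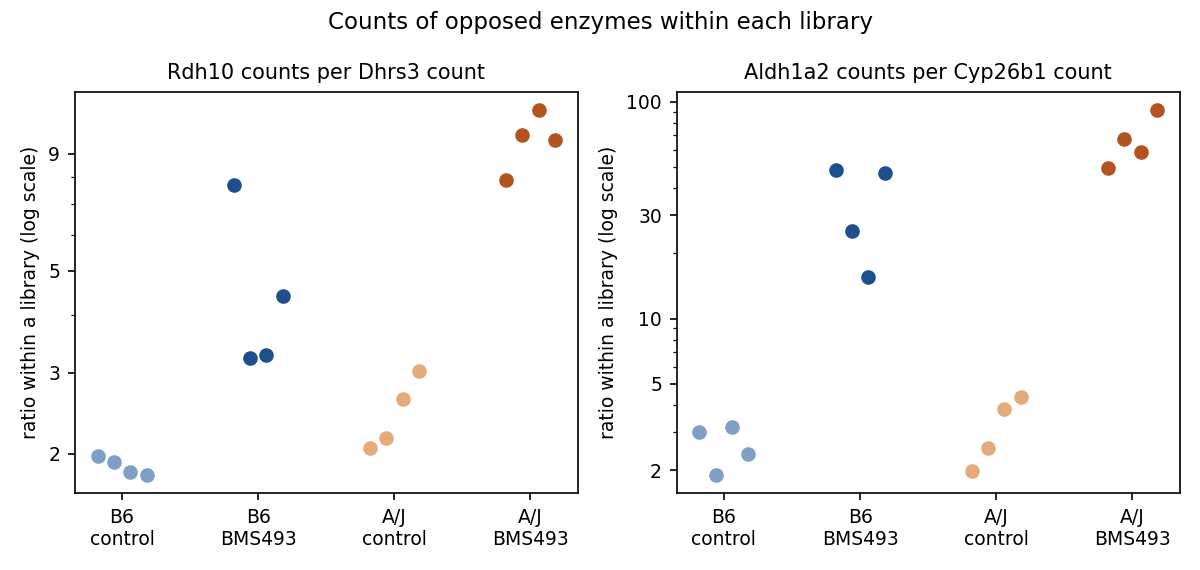
Counts of Rdh10 for each count of Dhrs3 (left) and of Aldh1a2 for each count of Cyp26b1 (right) in each library (points, log y axes), by group. The control libraries lie between 1.80 and 4.36 and the BMS493 libraries at 3.24 or above on the left and 15.6 or above on the right.

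Other genes of the pathway were taken from fixed lists of 55 genes, 38 of which were tested. With BMS493, 3 of the 38 were called lower and none higher in B6, and 3 lower and none higher in A/J. Of all genes tested, 0.347% were called lower and 0.0752% higher in B6, and 0.423% and 0.0637% in A/J. The median log2 fold changes of the 38 were 0.00 in B6 and -0.04 in A/J, beside 0.01 and 0.00 over all genes tested. Lrat, which stores retinol as ester, fell by 2.51 in B6 (adjusted p = 0.000514) and by 5.53 in A/J (adjusted p = 3.21e-13). Rarb fell by 1.02 in B6 (adjusted p = 0.0190) and by 1.56 in A/J (adjusted p = 9.11e-05). Stra6, the retinol uptake receptor gene, was the third in B6 (-1.15, adjusted p = 0.0268), and Nrip1, a receptor corepressor gene, the third in A/J (-0.37, adjusted p = 0.0330). The B6 calls of Rarb and Stra6 were each lost without any 1 of the B6 control libraries or without B6 BMS493 replicate 2 (Rarb -1.05 to -0.89, adjusted p of 0.0520 to 0.0790), that of Stra6 also without B6 BMS493 replicate 3 (Stra6 -1.17 to -0.87, adjusted p of 0.0693 to 0.0957), and the A/J call of Nrip1 without A/J control replicate 1, 2 or 4 or A/J BMS493 replicate 1, 3 or 4 (-0.39 to -0.33, adjusted p of 0.0619 to 0.172). With only the 8 B6 libraries fitted, the adjusted p was 0.144 for Rarb and 0.142 for Stra6. With counts of 1 strand only, Stra6 in B6 lost its call with the third count column (-0.91, adjusted p = 0.129) and Nrip1 in A/J with the fourth (-0.32, adjusted p = 0.0654).

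Other oxidoreductases act on retinol and retinaldehyde beside Rdh10 and Dhrs3. Of 19 such genes listed, 9 were tested and none was called by edgeR in any of the 6 contrasts. With BMS493 an unadjusted p under 0.05 was found for 2 of the 9 in B6, both higher, and for 0 in A/J, against 9.11% and 6.23% of all genes. DESeq2 called 0 in either strain, but 1 with the effects averaged over the strains and 1 in A/J against B6 with BMS493. Rdh11, a retinaldehyde reductase gene, was at 35.7 to 47.8 CPM over all 16 libraries. Of the other Cyp26 genes, Cyp26a1 had 0 to 3 counts in a library and Cyp26c1 0 to 2, so neither was tested and Cyp26b1 was the only Cyp26 gene measured.

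Between strains, 6 of the 38 were called higher in A/J control lungs and 1 lower, against 7.04% and 9.84% of all genes tested. With BMS493, 6 were called higher and 4 lower, against 7.93% and 12%. The largest of these differences was that of Lrat in control lungs, at 3.57 on the log2 scale (adjusted p = 1.67e-12), where its CPM was 14.7 to 18.2 in A/J and 0.877 to 1.88 in B6. With BMS493 the Lrat libraries of both strains held 3 to 12 counts each, and the strain difference was not called (0.55, adjusted p = 0.432). The other 5 called higher in control lungs were also called higher with BMS493. They were Crabp2, which encodes a carrier of retinoic acid in the cell (1.04 and 0.85), Fabp5, whose protein carries fatty acids and retinoic acid (0.90 and 0.98), Stra6 (0.72 and 1.11), the cytochrome gene Cyp1b1 (0.62 and 0.56) and the lipoprotein lipase gene Lpl (0.56 and 0.46). Rbp4, the retinol carrier of the blood, was called higher with BMS493 alone (0.58), and those called lower there included Ces1d (-0.94), Cyp2s1 (-0.85) and Aldh1a7. The call of Stra6 in control lungs was lost without B6 control replicate 1, 2 or 4 or A/J control replicate 2 (adjusted p of 0.0574 to 0.1002). With BMS493, Crabp2 lost its call without B6 or A/J BMS493 replicate 3, B6 BMS493 replicate 2 or A/J BMS493 replicate 4 (adjusted p of 0.0665 to 0.113), Cyp2s1 without B6 BMS493 replicate 2 (adjusted p = 0.0904) and Rbp4 without A/J BMS493 replicate 4 (adjusted p = 0.0567). The Crabp2 call was also lost in a fit to the 8 BMS493 libraries alone (adjusted p = 0.0988) and under the fourth count column (adjusted p = 0.0742), and with the third count column Cyp1b1 (0.49, adjusted p = 0.0553) and Rbp4 (0.46, adjusted p = 0.109) lost theirs.

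The genes whose levels were most like those of 5 of the enzymes were ranked by Pearson r of log2 CPM over the 16 libraries among 13034 protein-coding genes with a mean CPM of at least 1, the 6 enzymes left out. The libraries fall into groups, so r was also taken over deviations from the group means. Among the enzymes themselves, Dhrs3 and Cyp26b1 had an r of 0.95 (0.54 for deviations), slightly above that of any gene ranked for either. Of the genes ranked, Dhrs3 was most like Rarb (r = 0.95, and 0.69 for deviations), Lbh (0.93 and 0.60) and Camk2n1 (0.93 and 0.66). Cyp26b1 was most like Shisa9 (0.95 and 0.57), Hoxa5 (0.93 and 0.18) and Rarb (0.92 and 0.38), so that for Hoxa5 and Rarb the likeness lay mostly in the group means. Rdh10 was most like Fam136a (0.96 and 0.85), Bzw2 (0.95 and 0.91) and Rcbtb1 (0.95 and 0.81). For Aldh1a2 these were Cacng8, Sept3 and St8sia1 (0.93, 0.91 and 0.91), and for Aldh1a1 Ccdc85a, Acad11 and Ass1 (0.89, 0.89 and 0.88).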

How the data were processed

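Gene expression was measured by sequencing poly(A)-selected RNA. The authors deposited raw counts per gene for each library, made with STAR after cutadapt and FastQC on GRCm39, per the submitters' processing notes, where versions were not given in the sources used here. Each deposited table gave unstranded counts and, in 2 further columns, counts by strand. The first stranded column took 51.0% to 52.0% of the pair, so unstranded counts were used. Lines that name no gene held 23.1% to 28.3% of a library and were left out.

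Symbols, exon lengths and chromosome names came from GENCODE M21 (GRCm38), to which 51884 of 57180 identifiers matched. Because that build differs from the authors', coordinates are given only for RefSeq GRCm38.p6 promoters. Counts were filtered with filterByExpr, scaled with TMM and tested with edgeR 4.0.16 (robust quasi-likelihood, 1 coefficient per group, all 16 libraries, 12 residual degrees of freedom) in R 4.3.3. Every adjusted p is from edgeR unless DESeq2 1.42.0 is named, is two-sided and adjusted by Benjamini-Hochberg over 17276 genes (in an alternative, over the genes that it tested); SE and intervals are from the same test. Logged CPM used a prior count of 2. The steps were tested on simulated data with known BMS493 effects, equal in both strains, so the test of a difference between strains was not covered.

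The enzymes, lists and tests were chosen with earlier results of these data known. Named genes were the 6 enzymes, listed genes called in any contrast (others by count, markers by list), 7 listed genes whatever their result, and the 3 genes most alike to each enzyme (those of Aldh1a3 are not reported here). Libraries of a group differed by more than counting noise in all 24 pairs. Alternatives were RLE scaling, DESeq2, no filter, a filter at mean CPM 1, fits to the compared libraries alone, a replicate block, the library set as covariate, the stranded columns (columns 3 and 4 of the tables, and their sum) and leaving out each library.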

Additional observations from a re-analysis of the deposited data

Results flagged for a closer look

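In 24 sets of 4 libraries, 1 for each enzyme gene and group, 3 held a library far from the other 3 (Dixon's ratio of the gap to the range above its 95% critical value). Chance alone gives about 1 in 20. Dhrs3 in B6 control replicate 2 was at 19.5 CPM, where the others lay at 17.0 to 17.3 (ratio 0.902). Aldh1a2 in B6 control replicate 1 was at 39.6 CPM, where the others lay at 46.5 to 47.9 (ratio 0.830). Cyp26b1 in B6 BMS493 replicate 3 was at 2.47 CPM, where the others lay at 1.10 to 1.21 (ratio 0.922). The same library also held the highest Dhrs3 and Rarb levels of its group, at 9.54 and 6.67 CPM.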

How the results depend on the processing

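The falls of Cyp26b1 and Dhrs3 with BMS493 in B6, in A/J and averaged over the strains were called under every alternative run for them and without each library in turn, as were the higher Rdh10 in A/J under both treatments and the lower Dhrs3 in A/J with BMS493. The higher Aldh1a2 in A/J with BMS493 was called at 0.59 but not with only the 8 libraries compared (0.59), and without single libraries it ranged from 0.42 to 0.73. In A/J against B6 control, Aldh1a1 was called with DESeq2 (-0.40), no filter (-0.41), only the libraries compared (-0.40), the replicate block (-0.41) and column 4 (-0.46), and without single libraries it ranged from -0.47 to -0.34. With BMS493 it was called with no filter (-0.27) and ranged from -0.39 to -0.11. Aldh1a2 in control lungs was called with only the libraries compared (0.38). Signs turned only for values that were not called: Rdh10 for the difference of effects (-0.010 with column 3, -0.059 to 0.091 without single libraries), Dhrs3 between control strains (0.074 with column 4, -0.096 to 0.050), Aldh1a1 averaged (-0.0052 with the replicate block, -0.0021 with column 4, -0.074 to 0.065), in B6 (-0.22 to 0.056) and in A/J (-0.016 to 0.13), Aldh1a2 in B6 (-0.18 to 0.13) and averaged (-0.00095 to 0.15), Aldh1a3 for the difference (-0.18 to 0.23) and Cyp26b1 between control strains (-0.059 to 0.31). The number of all genes called was 73 in B6 (159 with DESeq2, 260 with no filter, 27 with only the libraries compared, 27 to 201 without single libraries), 84 in A/J (158, 178, 133 and 52 to 90), 237 averaged (397 with DESeq2, 487 with no filter, 165 to 371) and 1 for the difference (2 with DESeq2, 12 with no filter, 1 to 2). In B6 it was under 40 without any 1 of the control libraries or BMS493 replicate 2 and highest without BMS493 replicate 1, as was the averaged count. In A/J it was lowest without BMS493 replicate 3 and was 55 without control replicate 1 or 2. For the difference it was 2 without B6 control replicate 3 or A/J BMS493 replicate 3. The causes were not tested. Whether replicate numbers pair the libraries was not settled. Deviations of same-numbered libraries correlated from -0.147 to 0.148 (median -0.0089), and those of other numbers from -0.138 to 0.177 (median 0.0047). Of 24 same-numbered pairs 3 exceeded 0.1, against 1 of 72 others. Of 16 libraries, 7 correlated best with their own number. With the replicate block, Aldh1a1 in control lungs was the only enzyme value to change its call (adjusted p = 0.0484), and Stra6 in B6 lost its call (adjusted p = 0.0502). Counts were low for Aldh1a3, at 9 to 41 per library, and for treated Cyp26b1, at 15 or more, and the effect of depth on them was not tested.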

Other observations

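B6 BMS493 replicates 2 and 3 were set apart from replicates 1 and 4 by several genes beside Aldh1a1 and Aldh1a2. Upk3b, a mesothelial marker, was at 32.1 and 35.7 CPM in replicates 2 and 3, against 49.8 and 45.5 in replicates 1 and 4. Msln, another mesothelial gene, went the other way, at 3.97 and 2.00 CPM against 1.36 and 1.03. Ccdc85a was at 9.22 and 8.14 CPM against 3.48 and 4.82. It was picked for its likeness to Aldh1a1 in these same libraries, so its split is no separate observation. For Cyp26b1 and Dhrs3 the order of these 4 libraries was not the same, and replicates 2 and 4 of the group lay close together, at 1.10 and 1.21 CPM of Cyp26b1 and 7.53 and 7.35 CPM of Dhrs3.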
